A study of Mus musculus with 6 samples.

Results

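The genes described here are 39 genes of homologous recombination, the Fanconi pathway and the checkpoints that act with them, chosen by symbol from the 37043 symbols of the count table. All 39 were found and all 39 passed the filter on low counts, so that each was among the 16675 genes tested. They were measured by bulk RNA-seq in bone marrow-derived basophils (BMBAs), which are basophils grown in culture from the marrow of mice, here wild-type C57BL/6J. Culture lasted 7 days with 0.3 ng/mL of cytokine, and CD49b beads were then used to enrich the basophils. The cytokine of the culture is IL-3 by the methods of the study. Of the 6 cultures, 3 then received PBS as a control and 3 received 10 ng/mL IL-3, a growth and activation factor of basophils, for 6 h. The sources used here do not say if the culture medium with IL-3 was kept during PBS treatment or how many animals gave each culture, and p-values measure the spread between these 6 cultures only.

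Homologous recombination repairs breaks and stalled replication forks by copying the sister chromatid. The broken end is resected to a single strand, the BRCA1 and BRCA2 complexes load a recombinase on it, paralogs of the recombinase help it to invade the sister, and helicases and nucleases then separate the joined molecules. The Fanconi pathway clears crosslinks between the strands at replication forks: its core complex, with the conjugating enzyme UBE2T, attaches ubiquitin to the FANCI-FANCD2 pair, which calls in nucleases and recombination factors. The ATM and ATR kinases sense the damage, and CHK1 and CHK2 pass the signal on to the cell cycle. Because these pathways act in S and G2 phase, many of their genes are transcribed mainly in cycling cells, often under E2F factors.

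Between 10537540 and 13999287 counts were obtained per library. Libraries of the same group had a Pearson's r of log2 CPM between 0.985 and 0.988, and libraries of different groups between 0.952 and 0.957. Values per gene are given as CPM, which are counts divided by the TMM-scaled size of the library in tested genes, for replicates 1, 2 and 3 in that order and as mean ± SD with n = 3. Per library, the 39 genes had between 12 and 513 counts, which makes them low to moderate in these cells, with a median of 6.72 CPM over the 6 libraries against 12.8 CPM for all genes tested. The 3 counts that a reading of 0 would allow are 0.233 to 0.296 CPM, and every member was above that floor in every library. Log2 fold changes are IL-3 over PBS, with their standard error (SE) and a p adjusted over all genes tested, both from the quasi-likelihood test of edgeR, and genes below an adjusted p of 0.05 are called lower or higher.

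More of the recombination and Fanconi genes fell than rose after IL-3, and the larger number passed the test in neither direction. By the TMM-scaled fit, 14 of the 39 genes fell (35.9%) where 20.2% of all genes tested were called lower, and 3 rose (7.69%) where 18.0% of all genes tested were called higher. With 17 called in either direction (43.6%, against 38.2% of all genes tested), the other 22 were not called. Those that fell were Brca1, Bard1, Brip1, Rad51ap1, Rad54l, Rad54b, Eme1, Fance, Fancg, Ube2t, Fancd2, Atm, Chek2 and Clspn, and those that rose were Blm, Rad51b and Rmi2. The median log2 fold change was -0.50, beside -0.0033 over all genes tested, with a range from -1.47 (Fancd2) to 0.86 (Rad51b). The fitted change was negative in 33 of the 39, beside 8394 of the 16675 genes tested. The counts moved with the settings: with library totals in place of TMM, 24 of the 39 were lower and 2 higher, beside 5030 genes lower and 1698 higher in all, and a test against a fold of 1.5 left 7 of the 39 lower and 0 higher.

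Taken as a sum, the 39 transcripts made up 397.2, 413.7 and 440.4 CPM in the PBS libraries and 356.5, 344.0 and 321.2 CPM in the IL-3 libraries, so that the groups did not overlap. Gene by gene, all 3 IL-3 libraries lay below all 3 PBS libraries in 21 members, as in 24.4% of all genes tested, and above them in 3, as in 23.8% of all genes tested. In the remaining 15 the groups overlapped. All 17 called genes were free of overlap, and so were 7 that were not called. The fitted fall was at least 2-fold in 6 genes: Fancd2, Chek2, Rad54l, Eme1, Rad51ap1 and Clspn. The precision of these low counts was limited: the median SE was 0.20 for the 39 genes and 0.14 for all genes tested, 3 of the 14 members below 6 CPM were called against 14 of the 25 at or above it (a limit chosen after the values were seen), and 7 members had an adjusted p between 0.05 and 0.1. In bulk RNA, fewer cycling cells and less RNA per cycling cell cannot be told apart.

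**Figure D1:**
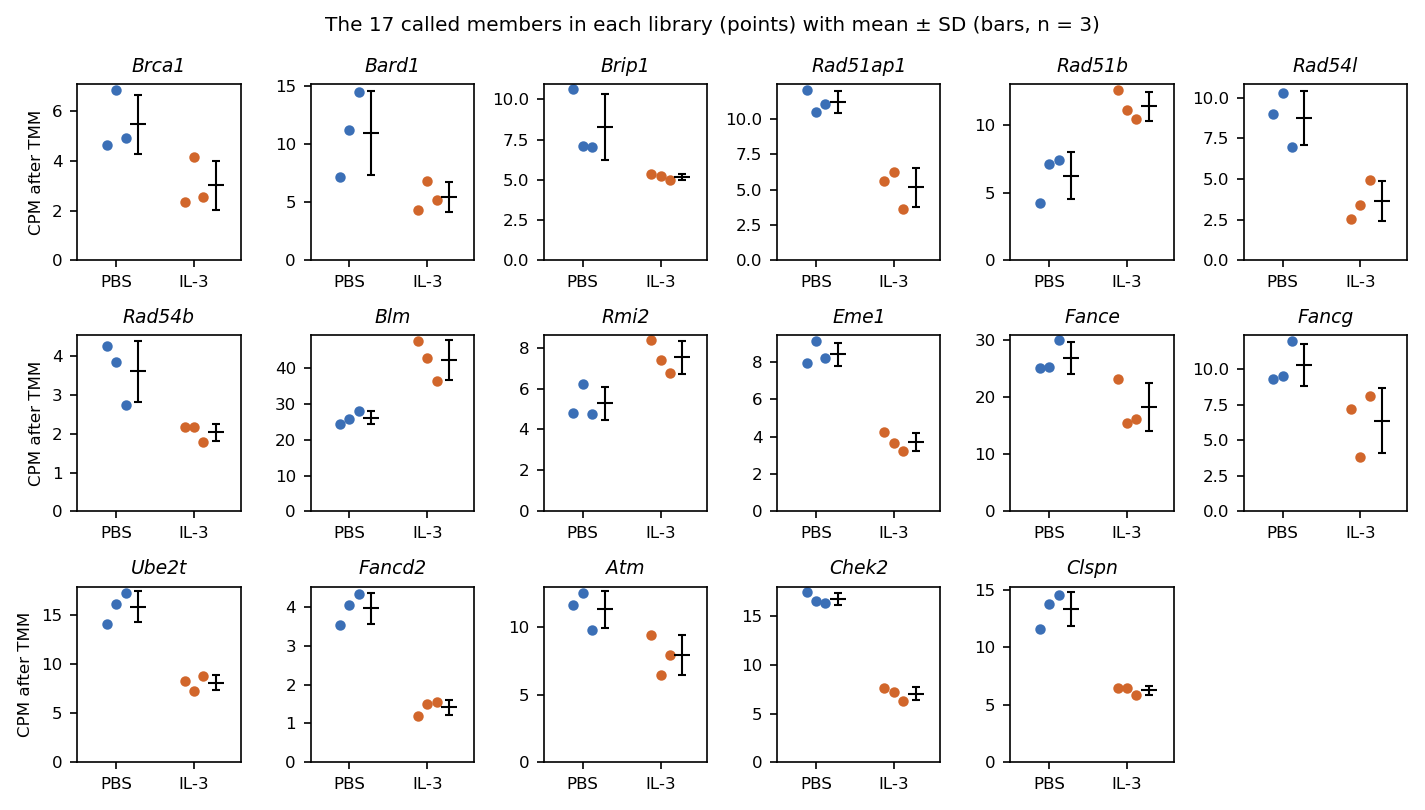
The 17 called genes in each library. Points are CPM after TMM scaling in the 3 PBS (blue) and 3 IL-3 (orange) libraries, bars are mean ± SD (n = 3), and each axis starts at 0. In every panel the groups are apart, with IL-3 above PBS for Rad51b, Blm and Rmi2 and below PBS for the other 14.

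As examples of the promoter windows searched for motifs, the bases just before the starts of Blm and of 3 of the genes with an E2F match, Chek2, Clspn and Bard1, are shown from RefSeq (GRCm38.p6), 5′ to 3′ on the strand of the gene. They are Blm (chr7:80535120-80535248, minus strand), Chek2 (chr5:110839733-110839978, plus strand), Clspn (chr4:126556730-126556934, plus strand) and Bard1 (chr1:71103147-71103222, minus strand), and each stretch ends before the outermost start in GENCODE M21. Capitals mark the motifs found.
Blm: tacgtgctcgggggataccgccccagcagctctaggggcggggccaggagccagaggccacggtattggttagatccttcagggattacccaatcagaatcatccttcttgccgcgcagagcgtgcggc
Chek2: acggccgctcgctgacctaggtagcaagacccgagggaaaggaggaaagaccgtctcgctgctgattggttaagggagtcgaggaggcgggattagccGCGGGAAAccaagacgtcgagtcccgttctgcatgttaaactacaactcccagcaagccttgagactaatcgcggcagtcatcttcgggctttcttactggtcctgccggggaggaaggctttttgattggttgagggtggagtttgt
Clspn: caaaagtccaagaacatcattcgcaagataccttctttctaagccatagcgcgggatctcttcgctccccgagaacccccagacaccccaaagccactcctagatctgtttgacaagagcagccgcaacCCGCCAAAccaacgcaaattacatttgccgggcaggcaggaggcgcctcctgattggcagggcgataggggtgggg
Bard1: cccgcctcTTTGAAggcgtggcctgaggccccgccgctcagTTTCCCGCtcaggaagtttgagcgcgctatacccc

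The motifs searched, on both strands, were the E2F sites TTTGGCGC, TTTCCCGC, TTTGGCGG and TTTCCCGG, the cell cycle homology region (CHR) elements TTTGAA and TTCGAA, and the STAT site TTCNNNGAA. A CHR element can lie within a STAT match, but no window of the genes described here held both. The windows searched ran from 250 bases before to 50 bases after the RefSeq start. Such windows were matched for 30 of the 39 genes, and those of Rad51d, Xrcc2, Rad54b, Nbn, Rbbp8, Exo1, Rmi2, Fancd2 and Tipin were not. The 30 genes had 34 such windows. An E2F site was present in 8 of the 34 (23.5%), each of a different gene, against 3.32% of all 32851 promoters and 5.43% of promoters of tested genes. In Chek2, the letters TTTCCCGC stand on the opposite strand, first base 152 before the start, and in Bard1 on the strand of the gene, 209 before the start, with TTTGAA 242 before it. Clspn holds TTTGGCGG on the opposite strand, 121 before the start. In the Blm window none of these letters were found.

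Of the 12 genes called lower that had a window, 4 held an E2F site (Bard1, Chek2, Clspn and Fancg) and 8 did not (Atm, Brca1, Brip1, Eme1, Fance, Rad51ap1, Rad54l and Ube2t). Of the 16 genes not called that had one, 4 held it (Brca2, Chek1, Rad51c and Rmi1). A CHR element was present in 4 of the 34 windows (11.8%), against 19.2% of all promoters and 15.6% of those of tested genes. The 4 were those of Bard1 and Eme1, which fell, Rad51b, which rose, and Atr, which was not called. The STAT site was present in 4 of the 34 windows (11.8%), of Fancb, Fancl and, in 2 overlapping windows, Rad54l, against 8.30% of all promoters and 7.19% of those of tested genes. These are matches of letters and not measured sites.

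The BRCA1 complex and the factors that load BRCA2 fell in 3 of 5 members (5 with library totals), with a median log2 fold change of -0.68. Together they made up 39.5 ± 3.29 CPM with PBS and 24.2 ± 4.89 CPM with IL-3. Bard1, the obligate RING partner of BRCA1 (chromosome 1, 71027498 to 71103146, as for all gene positions here in GENCODE M21, GRCm38), was at 7.20, 11.2 and 14.4 CPM with PBS and 4.34, 6.83 and 5.20 CPM with IL-3. Its highest IL-3 library lay just under its lowest PBS library. The log2 fold change was -0.99 (SE 0.23, adjusted p = 0.00311).

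Brca1 itself, the ubiquitin ligase and scaffold of the complex (chromosome 11, 101488764 to 101551955), was at 4.66, 6.84 and 4.93 CPM with PBS and 2.37, 4.16 and 2.56 CPM with IL-3, a log2 fold change of -0.84 (SE 0.25, adjusted p = 0.0145). Brip1, the helicase that binds BRCA1 (chromosome 11, 86058138 to 86201193), was at 10.6, 7.10 and 7.05 CPM with PBS and 5.33, 5.25 and 4.96 CPM with IL-3. The 3 IL-3 values lay close together while PBS replicate 1 stood above the other PBS libraries. The log2 fold change of Brip1 was -0.68 (SE 0.19, adjusted p = 0.0110), and it was -0.45 (adjusted p = 0.0801) without PBS replicate 1. Brca1 missed the threshold without PBS replicate 2 (adjusted p = 0.0799), IL-3 replicate 1 (0.0595) or IL-3 replicate 3 (0.0620).

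Palb2, which bridges BRCA1 and BRCA2, averaged 4.03 ± 0.483 CPM with PBS and 2.80 ± 0.318 CPM with IL-3 without overlap, and its adjusted p was 0.0822. Brca2, which loads the recombinase on single-stranded DNA, averaged 10.8 ± 1.31 and 7.72 ± 2.64 CPM. The IL-3 replicates of Brca2 stood at 6.52, 10.7 and 5.90 CPM, so that replicate 2 reached into the PBS range. With all libraries its log2 fold change was -0.47 (adjusted p = 0.0770), and leaving out each library in turn gave -0.80 (without IL-3 replicate 2, adjusted p = 0.00341) to -0.30 (without IL-3 replicate 3, adjusted p = 0.297).

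Among the 8 recombinase paralogs and strand exchange helpers, 3 helpers fell and 1 paralog, Rad51b, rose. Rad54l, a motor protein that drives strand invasion (chromosome 4, 116094264 to 116123690), was at 8.999, 10.26 and 6.959 CPM with PBS and 2.57, 3.41 and 4.96 CPM with IL-3. This was a fall of 2.36-fold (log2 fold change -1.24, SE 0.23, adjusted p = 0.000449). Rad51ap1, which stimulates joint molecule formation (chromosome 6, 126923050 to 126939587), was at 12.03, 10.52 and 11.1 CPM with PBS and 5.63, 6.25 and 3.65 CPM with IL-3. Here the PBS libraries were near each other and IL-3 replicate 3 was the lowest of all. The log2 fold change was -1.12 (SE 0.19, adjusted p = 0.000169).

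Rad54b, the second RAD54-type motor (chromosome 4, 11558922 to 11615805), was at 4.25, 3.86 and 2.73 CPM with PBS and 2.17, 2.17 and 1.78 CPM with IL-3, with a log2 fold change of -0.83 (SE 0.26, adjusted p = 0.0186). Of its 50-base words, 34.5% are also found in transcripts of Fsbp, which overlaps it on the same strand, so that the split of reads between them is uncertain. Fsbp had between 5 and 21 counts per library and was not called (adjusted p = 0.224). Rad54b also missed the threshold without PBS replicate 1 (adjusted p = 0.0810), PBS replicate 2 (0.0537) or IL-3 replicate 3 (0.0743), and in the DESeq2 Wald test (0.0595).

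Rad51b, a subunit of the BCDX2 complex of paralogs (chromosome 12, 79297282 to 79814690), was at 4.25, 7.10 and 7.40 CPM with PBS and 12.5, 11.1 and 10.4 CPM with IL-3. Every IL-3 library was above every PBS library, and PBS replicate 1 was the lowest. The rise was 1.81-fold (log2 fold change 0.86, SE 0.19, adjusted p = 0.00196). Its partners in that complex did not pass the test. Rad51c was at 2.28 ± 0.294 CPM with PBS and 1.72 ± 0.295 CPM with IL-3 (adjusted p = 0.294).

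Rad51d, a further partner, was at 20.3, 16.7 and 17.5 CPM with PBS and 19.0, 18.8 and 19.4 CPM with IL-3. The IL-3 values all lay inside the PBS range. The log2 fold change of Rad51d was 0.07 (SE 0.11, adjusted p = 0.682), and -0.094 with library totals in place of TMM. It ranged from 0.0086 to 0.156 with each library left out in turn. Xrcc2, the last subunit, was at 4.09, 3.68 and 6.43 CPM with PBS and 5.23, 3.83 and 3.96 CPM with IL-3, a log2 fold change of -0.13 (SE 0.24, adjusted p = 0.712) that was 0.15 without PBS replicate 3. Xrcc3, which pairs with RAD51C in a separate complex, averaged 3.03 ± 0.595 and 2.20 ± 0.494 CPM (adjusted p = 0.191).

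Within a library, the ratio of Rad51b to Rad51c counts was 1.62, 3.38 and 3.50 in PBS and 9.07, 6.04 and 5.36 in IL-3. Ratios of this kind do not depend on library scaling. The ratio of Rad51b to Rad51d was 0.210, 0.426 and 0.422 in PBS and 0.662, 0.588 and 0.536 in IL-3. For both the groups were apart, with log2 differences of 1.31 and 0.82. These 2 ratios, like 4 others further on, were picked after the values were seen and are given with no test.

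DNA end resection had no called member among 4 by the quasi-likelihood test of edgeR. An unadjusted p below 0.05 was found for 1 of them (Rbbp8), and the exact test of edgeR, the DESeq2 Wald test and limma-voom called 0, while 2 were called lower with library totals. Mre11a, the nuclease that starts resection, was at 15.1, 16.1 and 19.1 CPM with PBS and 16.5, 15.1 and 15.7 CPM with IL-3. Its groups overlapped almost wholly, with a log2 fold change of -0.09 (SE 0.12, adjusted p = 0.611) that was 0.013 without PBS replicate 3. Nbn, which tethers the nuclease to ATM, averaged 15.8 ± 1.53 and 13.9 ± 0.913 CPM (adjusted p = 0.289). Rbbp8, the cofactor also named CtIP, averaged 28.9 ± 4.56 and 23.7 ± 3.30 CPM (log2 fold change -0.28, adjusted p = 0.0960), and leaving out each library in turn gave log2 fold changes of -0.41 to -0.18 with adjusted p from 0.0183 to 0.344. It passed without PBS replicate 1 and, at 0.0499, without IL-3 replicate 2. Exo1, the exonuclease that extends resection, averaged 5.33 ± 1.46 and 4.29 ± 0.630 CPM (adjusted p = 0.299).

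The complex that dissolves joined molecules rose in 2 of 3 members (Blm alone with library totals), and its summed level was 47.4, 51.2 and 58.8 CPM with PBS and 78.6, 74.8 and 64.8 CPM with IL-3. Blm encodes the RecQ helicase that is mutated in Bloom syndrome and separates joined chromatids without crossover. The gene (chromosome 7, 80454733 to 80535119, minus strand), whose upstream bases are printed above, was at 24.38, 25.78 and 28.01 CPM with PBS and 47.5, 42.7 and 36.2 CPM with IL-3. Its lowest IL-3 library was well above its highest PBS library, and the spread was wider after IL-3 (26.1 ± 1.83 against 42.1 ± 5.66 CPM). The rise was 1.61-fold (log2 fold change 0.69, SE 0.10, adjusted p = 7.20e-05), with a range of 0.60 to 0.79 when each library was left out. That Blm rises was known when the gene was listed, so these values describe it and are no independent test.

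Rmi2, a small subunit that stabilises the complex (chromosome 16, 10835059 to 10892966), was at 4.83, 6.23 and 4.76 CPM with PBS and 8.39, 7.41 and 6.75 CPM with IL-3. The gap between the groups was narrow. The log2 fold change of Rmi2 was 0.51 (SE 0.18, adjusted p = 0.0363). With library totals it was 0.35 (adjusted p = 0.153), in the DESeq2 Wald test the adjusted p was 0.0850, and without PBS replicate 1, PBS replicate 3, IL-3 replicate 1 or IL-3 replicate 2 the adjusted p was 0.107, 0.106, 0.135 and 0.0797. Rmi1, the subunit that joins BLM to its topoisomerase, averaged 21.1 ± 4.25 CPM with PBS and 23.1 ± 1.43 CPM with IL-3, with a log2 fold change of 0.13 (adjusted p = 0.480) that became -0.034 with library totals and ranged from 0.029 to 0.30 (without PBS replicate 3, adjusted p = 0.0598) with each library left out in turn. It shares 23.8% of its 50-base words with Gm20775, which had 14 to 20 counts per library and was not called. Exons of Hnrnpk overlap those of Rmi1 on the opposite strand.

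Relative to Rmi1, Blm had a count ratio of 1.34, 1.34 and 1.08 in PBS and 2.09, 1.73 and 1.66 in IL-3, so that the groups were apart by 0.54 on the log2 scale. Relative to Rmi2 it had a ratio of 5.05, 4.14 and 5.89 in PBS and 5.66, 5.76 and 5.37 in IL-3. These overlapped, with a log2 difference of 0.17. The widest was the ratio to Brca1, with 5.23, 3.77 and 5.68 in PBS and 20.04, 10.26 and 14.15 in IL-3, a log2 difference of 1.57. As the rise of Blm was known, these ratios are given with no test.

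**Figure D2:**
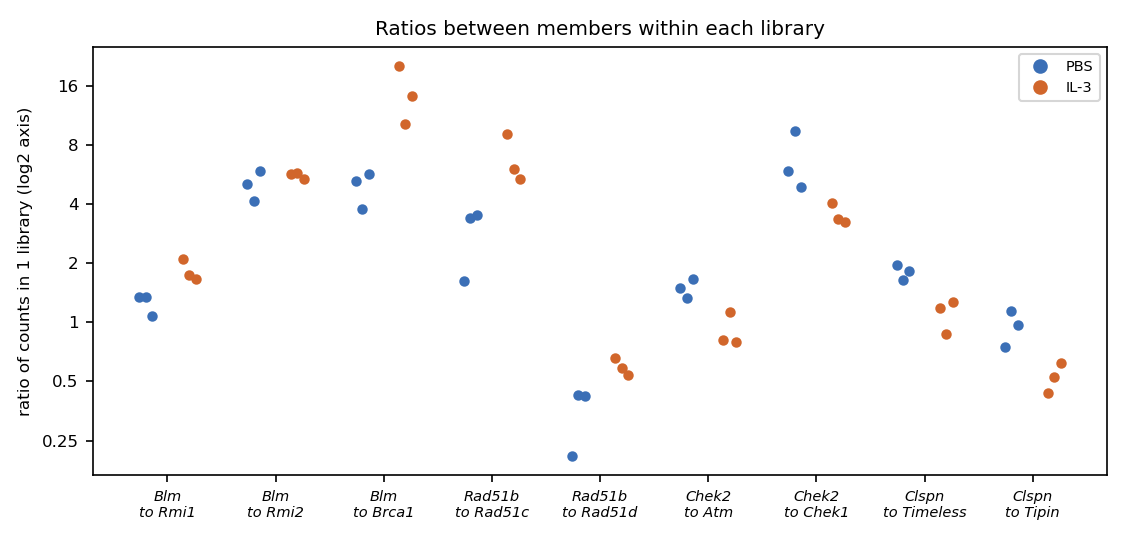
Ratio of the counts of 2 genes in the same library, on a log2 axis, for 3 PBS (blue) and 3 IL-3 (orange) libraries. The ratio of Blm to Brca1 went from between 3.77 and 5.68 in PBS to between 10.26 and 20.04 in IL-3, that of Blm to Rmi2 overlapped between the groups, and the last 4 ratios were lower in every IL-3 library.

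The structure-specific nuclease that cuts joined molecules is a pair, of which 1 subunit was called. Eme1, the regulatory subunit (chromosome 11, 94644996 to 94653964), was at 7.94, 9.12 and 8.19 CPM with PBS and 4.25, 3.66 and 3.26 CPM with IL-3. All IL-3 libraries were at about the same low level. The fall of Eme1 was 2.27-fold (log2 fold change -1.18, SE 0.18, adjusted p = 7.59e-05). Mus81, the catalytic subunit, was at 15.6, 19.8 and 17.4 CPM with PBS and 19.1, 17.5 and 16.9 CPM with IL-3, with overlap. Its log2 fold change of 0.02 (SE 0.12, adjusted p = 0.933) turned to -0.15 with library totals, -0.065 without PBS replicate 1 and to -0.036 without IL-3 replicate 1.

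In the Fanconi core complex with its conjugating enzyme, 3 of 8 genes fell, all 8 had negative fitted changes, and the median log2 fold change was -0.58. The number called lower was 7 with library totals, 5 without PBS replicate 2 and 5 with a replicate block. The summed level of the 8 was 81.0, 78.2 and 90.6 CPM with PBS and 60.1, 47.2 and 55.8 CPM with IL-3. Ube2t, the conjugating enzyme that FANCL uses (chromosome 1, 134962565 to 134974162), was at 14.2, 16.1 and 17.3 CPM with PBS and 8.29, 7.33 and 8.77 CPM with IL-3. Each group was tight and the gap between them was wide, with a log2 fold change of -0.96 (SE 0.14, adjusted p = 4.62e-05).

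Fance, the subunit that binds FANCD2 (chromosome 17, 28313519 to 28326572), was at 25.2, 25.3 and 30.0 CPM with PBS and 23.2, 15.6 and 16.1 CPM with IL-3, and IL-3 replicate 1 lay close to PBS. The log2 fold change was -0.56 (SE 0.14, adjusted p = 0.00498). Fancg, a scaffold subunit (chromosome 4, 43002343 to 43010506), was at 9.326, 9.557 and 11.98 CPM with PBS and 7.21, 3.83 and 8.14 CPM with IL-3. The spread of Fancg in IL-3 came mainly from replicate 2. Its log2 fold change was -0.68 (SE 0.22, adjusted p = 0.0222), which was -0.42 (adjusted p = 0.0930) without IL-3 replicate 2 and -0.56 (adjusted p = 0.0927) without PBS replicate 3.

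The other 5 genes of the core complex were not called by the quasi-likelihood test of edgeR. Fanca was at 5.86 ± 1.11 CPM with PBS and 3.98 ± 0.879 CPM with IL-3 (log2 fold change -0.57, adjusted p = 0.0534), and Fancb at 4.55 ± 0.961 and 3.03 ± 0.410 CPM (-0.60, adjusted p = 0.0531). Fancl, the ubiquitin ligase subunit, was at 5.99 ± 1.69 and 3.93 ± 1.16 CPM (-0.61, adjusted p = 0.0703). In all 3 the groups did not overlap, and leaving out each library in turn moved their adjusted p to both sides of the threshold. It ranged from 0.0336 (without IL-3 replicate 1) to 0.223 for Fanca, which also passed without PBS replicate 3 (0.0425). The range was from 0.0427 (without PBS replicate 2) to 0.235 for Fancb and from 0.0478 (without PBS replicate 2) to 0.327 for Fancl, whose log2 fold change was as small as -0.36. With all libraries, Fanca passed in the exact test of edgeR (adjusted p = 0.0479), in limma-voom (0.0498) and with a replicate block (0.0481). Fancl passed with the replicate block (0.0384) and with no filter on low counts (0.02965). Fancm, the translocase that finds stalled forks, was at 7.35 ± 2.02 and 5.14 ± 1.98 CPM (adjusted p = 0.149), and Fancc at 6.51 ± 1.81 and 5.47 ± 0.223 CPM (adjusted p = 0.385), both with overlap.

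The target of the core complex, the FANCI-FANCD2 pair, held the largest fitted fall of the 39 genes. Fancd2, whose ubiquitin mark activates the pathway (chromosome 6, 113531682 to 113597017), was at 3.52, 4.03 and 4.32 CPM with PBS and 1.185, 1.499 and 1.551 CPM with IL-3. These rest on 43 to 49 counts in PBS and 12 to 20 counts in IL-3. The fall was 2.77-fold (log2 fold change -1.47, SE 0.26, adjusted p = 0.000268), from 3.96 ± 0.405 to 1.41 ± 0.198 CPM. Fanci, its partner, went from 3.94 ± 0.739 to 2.66 ± 0.0946 CPM without overlap and did not pass (log2 fold change -0.56, adjusted p = 0.0702). It passed without PBS replicate 1 (adjusted p = 0.0407) and with library totals (adjusted p = 0.0216), and its adjusted p rose to as much as 0.235 with another library left out.

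Of the 7 checkpoint kinases and fork protection factors, 3 fell and the median log2 fold change was -0.43. Chek2, the effector kinase of ATM (chromosome 5, 110839979 to 110874145), was at 17.4, 16.5 and 16.3 CPM with PBS and 7.60, 7.25 and 6.28 CPM with IL-3. Both groups were tight and far apart. The fall was 2.38-fold (log2 fold change -1.25, SE 0.14, adjusted p = 1.97e-06), the smallest adjusted p among the 39 genes. Clspn encodes claspin, the adaptor through which ATR activates CHK1 (chromosome 4, 126556935 to 126593903), and it was at 11.6, 13.8 and 14.5 CPM with PBS and 6.417, 6.496 and 5.817 CPM with IL-3. The log2 fold change of Clspn was -1.09 (SE 0.15, adjusted p = 2.53e-05).

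Atm, the kinase that responds to breaks (chromosome 9, 53439149 to 53536740), was at 11.6, 12.5 and 9.78 CPM with PBS and 9.38, 6.41 and 7.91 CPM with IL-3, and IL-3 replicate 1 was close to PBS replicate 3. Its log2 fold change was -0.52 (SE 0.17, adjusted p = 0.0206), with an adjusted p of 0.0546 without PBS replicate 1, 0.0797 without PBS replicate 2 and of 0.104 without IL-3 replicate 2. Atr, the kinase of stalled forks, averaged 17.6 ± 0.349 and 15.3 ± 1.04 CPM without overlap (adjusted p = 0.191). Chek1, its effector, averaged 2.68 ± 0.829 and 1.99 ± 0.152 CPM (adjusted p = 0.273). Timeless and Tipin, which form the fork protection complex with claspin, averaged 7.44 ± 1.29 and 14.2 ± 1.89 CPM with PBS and 5.834 ± 1.501 and 12.2 ± 2.67 CPM with IL-3, with adjusted p of 0.208 and 0.296.

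Beside their partners, Chek2 and Clspn were lower in each IL-3 library. The log2 ratio of Chek2 to Atm was 0.58 ± 0.17 in PBS (n = 3) and -0.15 ± 0.29 in IL-3, and the plain ratio of Chek2 to Chek1 was 5.92, 9.40 and 4.87 in PBS and 4.05, 3.35 and 3.24 in IL-3. In both the groups were apart, by -0.73 and -0.87 on the log2 scale. The ratio of Clspn to Timeless was 1.95, 1.64 and 1.83 in PBS and 1.18, 0.867 and 1.27 in IL-3, and that of Clspn to Tipin was 0.751, 1.15 and 0.965 in PBS and 0.436, 0.524 and 0.620 in IL-3. The log2 differences were -0.72 and -0.85.

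**Figure D3:**
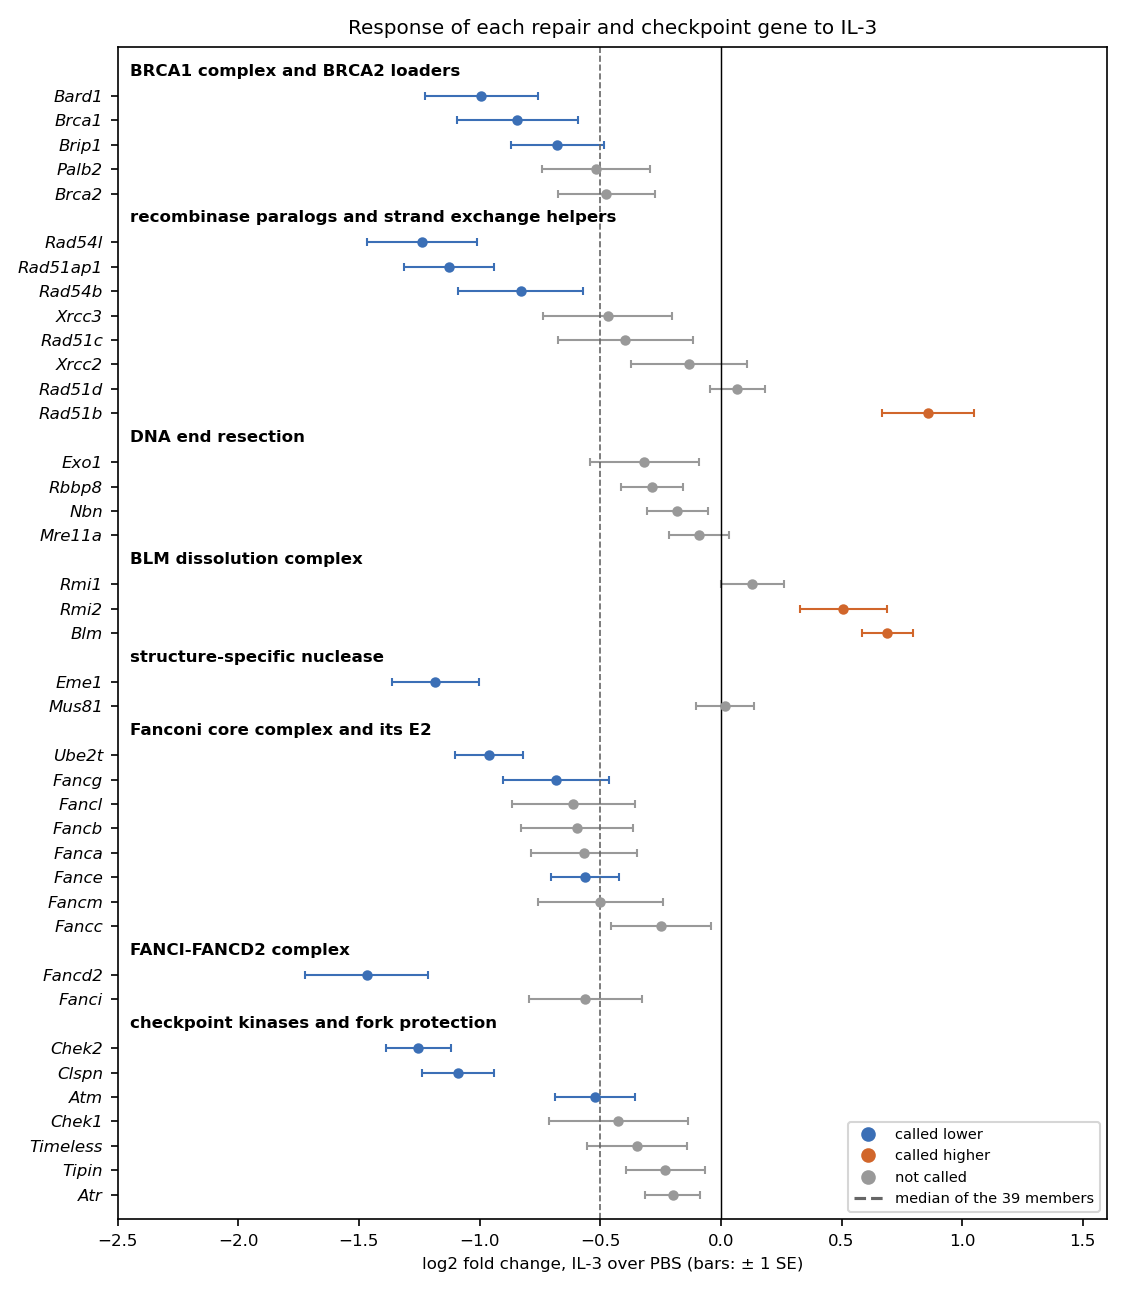
Log2 fold change (IL-3 over PBS) of each of the 39 genes, ordered by role, with bars of ± 1 SE from the edgeR fit. Blue and orange points are genes called lower and higher at an adjusted p below 0.05, grey points were not called, and the dashed line is the median of -0.50. Values run from -1.47 for Fancd2 to 0.86 for Rad51b, and all of the core complex and the checkpoint group lie left of 0.

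Levels of different genes were set side by side as CPM per kb of the longest coding transcript, an order that depends on this choice of length, since which transcripts were present is not known. On this scale the 39 genes had a median of 2.06 in PBS and 1.34 in IL-3. In PBS the order began with Ube2t at 14.2, Fance at 13.3, Mus81 at 8.51, Rbbp8 at 8.21, Tipin at 7.70, Chek2 at 7.35, Nbn at 6.23 and Blm at 5.46 CPM per kb. In IL-3 it began with Fance at 9.04, Blm at 8.84, Mus81 at 8.62 and Ube2t at 7.28 CPM per kb. Blm was at place 8 in PBS and at place 2 in IL-3, or at places 10 and 6 with the union of all exons as the length. The mean ± SD range of Blm overlapped those of Nbn, Rad51d, Rmi1 and Rad51ap1 in PBS and those of Fance, Mus81, Ube2t, Rbbp8 and Tipin in IL-3. Chek2 stood at 3.09 CPM per kb in IL-3. The lowest level was that of Rad51c in PBS (0.578 CPM per kb) and of Fancd2 in IL-3 (0.256 CPM per kb). With the union of all exons as the length, Fancd2 was the lowest in both groups. Ube2t was then at place 7 in PBS and 13 in IL-3.

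**Figure D4:**
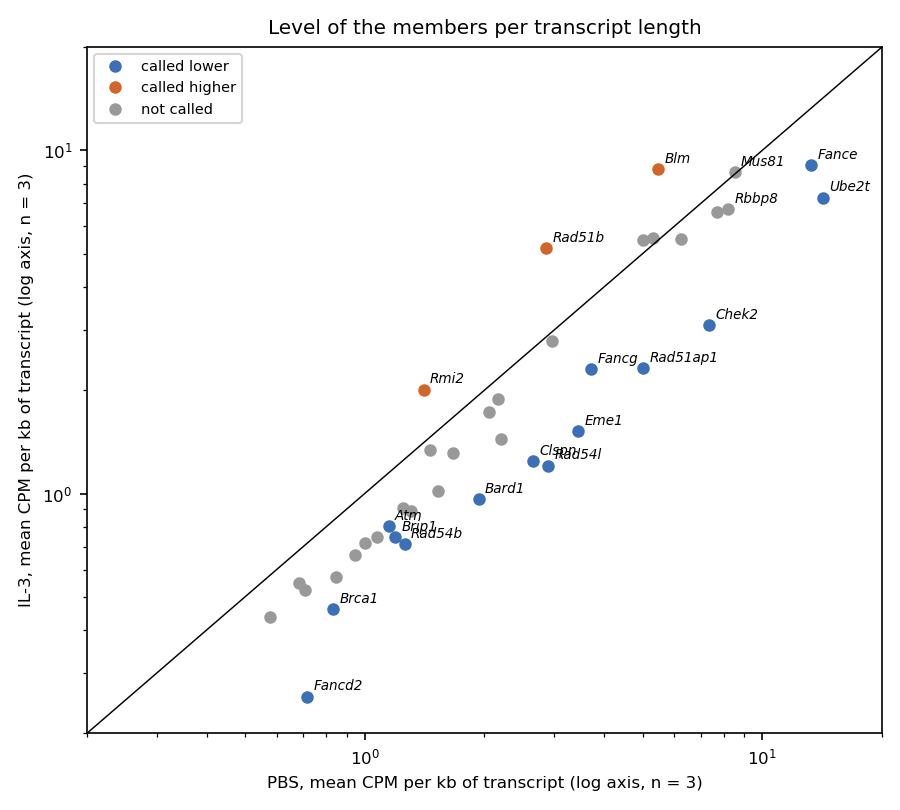
Mean level of each of the 39 genes in PBS (x axis) and IL-3 (y axis), in CPM per kb of the longest coding transcript, n = 3 libraries a group, on log axes. The diagonal marks equal levels. Blm, Rad51b and Rmi2 (orange) lie above it, genes called lower (blue) below it, and Fancd2 is the farthest below at 0.718 in PBS and 0.256 in IL-3.

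Other genes of the same pathways were counted from lists. Of all genes tested, 20.2% were called lower and 18.0% higher, and the counts are to be read beside these shares. Of 25 other homologous recombination genes, 13 fell (52.0%) and 0 rose by the quasi-likelihood test of edgeR, with a median log2 fold change of -0.43. None was higher with an unadjusted p below 0.05 either, nor by the exact test, the DESeq2 Wald test or limma-voom. Parpbp, an inhibitor of recombination (-1.39, adjusted p = 3.03e-05), and Rpa1, the large subunit of the single-strand binding protein (-0.62, adjusted p = 0.000625), were among the 3 with the smallest adjusted p. Of 17 other Fanconi genes, 4 fell and 1 rose (5.88%), with a median of -0.11 that was 0.019 without PBS replicate 3. The 4 are 23.5% of the list, near the 20.2% of all genes tested, and were 2 without PBS replicate 2 or IL-3 replicate 2. Cenpx (-0.57) and Uhrf1 (-0.77), which bind DNA, fell, and Faap100, a core complex subunit, rose from 9.26 ± 1.93 to 14.5 ± 1.02 CPM (log2 fold change 0.65, adjusted p = 0.00373).

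Among 23 other checkpoint and damage signalling genes, 8 fell (34.8%, against 20.2% of all genes tested) and 1 rose (4.35%, against 18.0%), with a median of -0.12. The histone variant gene H2ax (-0.66) and the ATR activators Topbp1 (-0.51) and Etaa1 (from 12.5 ± 0.647 to 6.22 ± 1.06 CPM) fell, while Hus1, a subunit of the checkpoint clamp, was the 1 called higher (0.48, adjusted p = 0.0310). That call was lost without PBS replicate 1, 2 or 3, without IL-3 replicate 2 or 3, with library totals and in the DESeq2 Wald test. Of the 9 tested genes of non-homologous end joining, the repair route that needs no sister chromatid, 3 fell (33.3%) and 1 rose (11.1%), with a median of -0.31. The polymerase gene Polm (-0.54) and the nuclease gene Dclre1c (-0.31) fell, and Paxx, an accessory factor, rose (0.28, adjusted p = 0.00963). Only 1 gene of this list was called lower without PBS replicate 1 or IL-3 replicate 2, and none higher without IL-3 replicate 2 or with library totals. Together the first 3 of these lists had 25 of 65 genes lower (38.5%) and 2 higher (3.08%), with a median of -0.23.

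The cell cycle lists, which leave out the 39 genes, were lower in the same comparison. Of all genes tested, 20.2% were called lower and 18.0% higher. In S phase genes 18 of 33 fell (54.55%) and 2 rose (6.06%), the median log2 fold change being -0.49. In G2/M genes 43 of 50 fell (86.0%) and 2 rose (4.0%), with a median of -0.99. Rrm2, a subunit of ribonucleotide reductase, changed by -1.22, the clamp loader gene Rfc2 by -0.56 and the repressor gene E2f8 by -1.70, while Tyms (0.40) and Cdca7 (1.33) rose, of which 1 call was left with library totals. In the G2/M list Hmgb2 (-1.06), Cenpa (-1.19) and Cenpf (-1.31) fell, and Tubb4b (0.16) and Lbr (0.20) were called higher. The number of higher calls in this list was 0 without PBS replicate 1, IL-3 replicate 1 or IL-3 replicate 2 and with library totals, and 1 without PBS replicate 2 or 3 and in the exact test. Of 19 E2F and pocket protein genes 11 fell (57.9%), E2f8, Tfdp2 (-1.26) and Rbl2 (-0.61) among them, and E2f4 rose (0.34, adjusted p = 0.00256, not called with library totals), with a median of -0.59. The summed level of the G2/M genes was 2919 to 3207 CPM with PBS and 1782 to 2013 CPM with IL-3, and that of the S phase genes 910.8 to 942.5 and 675.7 to 700.1 CPM. The part of this change in the values of the 39 genes was not tested.

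Known p53 target genes split in direction, with 6 of 17 higher (35.3%, against 18.0% of all genes tested) and 6 lower (35.3%, against 20.2%). Cdkn1a, the inhibitor of cyclin-dependent kinases, rose from 148.7 ± 9.42 to 609.1 ± 15.3 CPM (log2 fold change 2.04, adjusted p = 1.39e-13). Sesn2, a stress-induced inhibitor of growth signalling, also rose (2.08, adjusted p = 8.82e-11), and Gdf15, a secreted stress factor, fell (-1.96, adjusted p = 7.77e-08). The other genes called higher were Pmaip1 (0.81), Aen (0.83), Plk2 (0.44) and Mdm2 (0.23), and the other genes called lower were Phlda3 (-1.60), Gtse1 (-0.98), Trp53inp1 (-0.93), Bbc3 (-0.63) and Sesn1 (-0.44). The median of the list was -0.11, and its sign changed to positive if PBS replicate 3 or IL-3 replicate 3 was left out and with no filter on low counts.

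**Figure D5:**
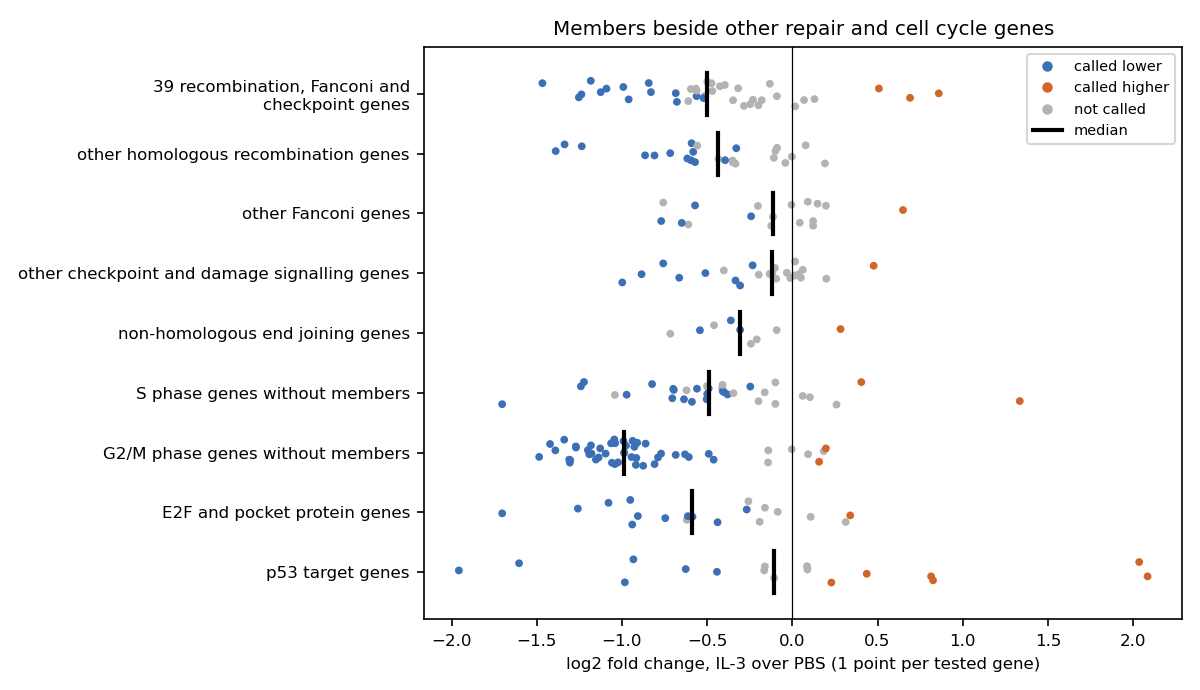
Log2 fold change (IL-3 over PBS) of every tested gene of the 39 and of 8 other lists, 1 point per gene, with the median as a black bar. Blue, orange and grey points are genes called lower, called higher and not called. The medians are -0.50 for the 39 genes, -0.43 for other homologous recombination genes, -0.49 for S phase genes and -0.99 for G2/M genes, with points on both sides of 0 in each list.

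Markers of cell types also moved between the groups, where 20.2% of all genes tested were called lower and 18.0% higher. Of 8 basophil markers 6 rose and 1 fell, the receptor chain gene Fcer1a, from 289.1 ± 16.0 to 204.0 ± 3.32 CPM (log2 fold change -0.50, adjusted p = 2.38e-06). The summed level of the 8 was 10250 to 11440 CPM with PBS and 15300 to 15490 CPM with IL-3, while Prss34, a basophil protease, was at 5615 ± 323 and 5661 ± 183 CPM. Of 9 monocyte and macrophage markers 7 fell and 2 rose (Adgre1 and Ly6c2), with sums of 11480 to 12390 and 6015 to 6623 CPM, most of it Lyz2. Mast cell markers rose in 4 of 6 tested (840.5 to 944.8 and 1437 to 1571 CPM), and progenitor markers in 2 of 6 with 1 fall, Myb (96.7 to 103.8 and 216.3 to 252.7 CPM, where most of the difference was Cdk6 at 44.5 ± 0.617 and 179.2 ± 16.4 CPM). The summed levels of neutrophil (113.0 to 155.5 and 185.7 to 245.3 CPM), eosinophil (154.9 to 172.9 and 95.6 to 136.4 CPM) and erythroid (72.0 to 136.0 and 40.1 to 63.0 CPM) markers moved as well. Of 6 neutrophil markers tested, 3 rose and 1 fell. Of 5 eosinophil markers tested 1 rose and 3 fell, and of 4 erythroid markers 0 rose and 2 fell. The largest changes in CPM in these lists were of Retnlg (11.3 ± 2.01 and 69.2 ± 5.53 CPM), Ear2 (134.5 ± 5.75 and 51.3 ± 8.39 CPM) and Hba-a1 (80.1 ± 33.1 and 36.6 ± 11.8 CPM). S100a8, S100a9, Hbb-bs and Ermap had positive fitted changes and were not called. Of 6 NK cell markers, Nkg7 alone passed the filter and rose (6.29 ± 1.11 and 29.3 ± 1.73 CPM), and the other 5 averaged under 1 CPM in both groups. Against the median of their lists, the eosinophil marker Prg2 rose and the neutrophil marker Mpo fell. No listed marker was at 0 in all 6 libraries. The part of these shifts in the levels of the repair genes was not tested.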

How the data were processed

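Raw read counts per gene symbol, in a single table of 3 PBS and 3 IL-3 libraries, are what the authors deposited. According to the study's methods, poly(A) RNA of lysed cells was reverse-transcribed on beads and amplified as cDNA, reads were trimmed with Cutadapt 3.4 and mapped with Bowtie2 to the reference RNA of GRCm38, and reads per gene were counted. The submitters' processing notes name GRCm39 instead, and the labels name a column kit in place of lysis. No molecular identifiers are described, so PCR copies count as reads and limits from counts cover counting error only. How reads of near-identical genes were split, and whether counting used strand, is nowhere given in the sources at hand. A gene's reads may therefore include those of an antisense partner, such as Lrrc41 for Rad54l, Lrrc59 and Mrpl27 for Eme1, Hnrnpk for Rmi1, CT010583.1 for Rmi2, CT025652.1 for Fance and Fancd2os for Fancd2.

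For the tests, edgeR 4.0.16 was run on the counts in R 4.3.3 (filterByExpr, TMM, the quasi-likelihood F test on a model of group alone, Benjamini-Hochberg adjustment over 16675 genes), after tests on simulated data. The study used TCC for this step, whose normalization was not repeated. The SE was derived from the F value. CPM divides by the counts of tested genes times the TMM factor. Alternatives used DESeq2 1.42.0, limma 3.58.1 (voom) and other settings of edgeR. The members and lists were chosen with earlier results of these data known. All 39 genes are named, with each library's value for the called ones and for the pairs with the highest p in each direction. Of each other list, the 3 genes with the smallest adjusted p and those called against the median are named, apart from 1 gene that is not reported here, and genes on more than 1 list are described once. Of the marker lists, examples and genes called against the median are named. Shared sequence was measured as 50-base words of GENCODE M21 transcripts, and promoters came from RefSeq (GRCm38.p6).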

Additional observations from a re-analysis of the deposited data

How the results depend on the processing

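Of 15 alternative fits, 14 kept 11 of the 17 calls in every case, and none turned a call to the opposite direction. The test against a fold of 1.5 (glmTreat) left 7 members lower and 0 higher (1 higher at an unadjusted p below 0.05), with 883 genes lower and 709 higher in all, and gave Blm an adjusted p of 0.380 at its log2 fold change of 0.69. At an adjusted p below 0.01, 9 members were lower and 2 higher, beside 2384 and 2163 of all genes. With library totals in place of TMM all log2 fold changes shifted by a median of -0.163, 24 members were lower and 2 higher (newly lower were Palb2, Brca2, Nbn, Rbbp8, Fanca, Fancb, Fancl, Fancm, Fanci and Atr), 5030 genes were lower and 1698 higher, and fitted changes reversed for Rad51d (-0.094), Rmi1 (-0.034), Mus81 (-0.15) and the median of the progenitor markers (-0.077). Of the other tools, the exact test of edgeR called 15 lower and 3 higher (3459 and 3018 of all genes), limma-voom 15 and 3 (3353 and 3001), and the DESeq2 Wald test 13 and 2 (2868 and 2644).

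Leaving out each library in turn gave 12 to 14 members lower and 2 to 3 higher, a median of -0.56 to -0.44, 2883 to 3108 genes lower and 2482 to 2787 higher, and 0.60 to 0.79 for Blm. Signs reversed for Mus81 without PBS replicate 1 (-0.065) or IL-3 replicate 1 (-0.036), in a range up to 0.11, and without PBS replicate 3 in the ranges of Xrcc2 (-0.28 to 0.15), Mre11a (-0.16 to 0.013) and the medians of other Fanconi genes (-0.12 to 0.019), p53 targets (-0.25 to 0.084) and progenitor markers (-0.13 to 0.35). The p53 median was also 0.072 without IL-3 replicate 3 and 0.00081 with no filter on low counts. The cause was not tested.

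The labels number the replicates 1 to 3 in both groups, but deviations of samples with the same number were not correlated (r of -0.00869, -0.0162 and -0.0224). No pairing by number was seen, but deviations from the means of 3 libraries cannot exclude one. With a replicate block 16 members were lower and 3 higher, 3247 genes were lower and 2842 higher, and Blm was at 0.69.

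With the union of all exons as gene length, an alternative chosen after seeing the data, the place of Blm by level per kb was 10 in PBS and 6 in IL-3. The SE of a member's log2 fold change reached 0.29, which limits what these counts resolve.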
